A study of Mus musculus with 6 samples.

Results

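Complement is a set of blood-borne and locally made proteins that mark cells and debris for removal, and its transcripts were followed here through 9 genes: C1qa, C1qb, C1qc, C3, C4b, C3ar1, C5ar1, Serping1 and Itgam. They were chosen by name and all 9 were found once among the 32285 genes of the count matrices. Nuclei came from frozen lumbar spinal cord of C57BL/6 mice aged 110 days. Every mouse carried SOD1G93A, a mutant human superoxide dismutase transgene used to model amyotrophic lateral sclerosis, and no sample without the transgene was analysed here. The 3 libraries called PHD1+/+ came from SOD1G93A/PHD1+/+ mice and the 3 called PHD1-/- from SOD1G93A/PHD1-/- mice, which lack the oxygen-sensing prolyl hydroxylase PHD1, the protein made by Egln2. The labels speak of littermate pairs, without saying which replicate is which pair, and the cell types in which PHD1 is lost are not given there. The study's title concerns motor neurons and the astrocytic response to interferon, and complement is not named in it.

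In the classical route C1q, assembled from the A, B and C chains, binds its target and starts the cleavage of C4 and then of C3. Fragments of C3 and C5 signal through the receptors C3aR (C3ar1) and C5aR1 (C5ar1), and surface-bound C3 fragments are taken up through complement receptor 3, whose alpha chain CD11b is made by Itgam. C1 inhibitor, the product of Serping1, blocks the proteases of C1. In the central nervous system microglia are the known main source of C1q, and C3 is a widely used marker of reactive astrocytes.

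The 6 libraries held 5208 to 9153 nuclei each, 41906 in all, at a median of 1363 to 2902 UMIs (unique molecular identifiers, each counting 1 captured transcript) per nucleus. Clusters were made without the 58 genes of a wider complement list and named from marker genes, which gave 16 named classes; each name below stands for "like" nuclei of that class. The share of microglia among nuclei was 7.11% ± 1.31 for PHD1+/+ against 6.66% ± 1.85 for PHD1-/- (3 libraries a group, ± SD; p = 0.6 by a two-sided exact permutation test). Their 9 markers were all detected. Egln2 was lower in every PHD1-/- library, at 9.04 to 10.1 CPM (UMIs of the gene scaled to a common total), than in the PHD1+/+ libraries, at 16.4 to 29.6 CPM. Its fitted log2 difference was -1.17 (SE 0.26, edgeR adjusted p = 1), and whether its 3' tag lies inside the deleted stretch is not known. Replicate 1 of both groups stood apart. Its nuclei were the shallowest, its microglia held 5801 and 5786 CPM of the 6 oligodendrocyte markers against 1089 to 2031 CPM in the other libraries, and 86 barcodes were shared between its 2 libraries against 0 to 14 for any other pair. The part these features had in the levels below was not tested, and values are therefore given library by library, PHD1+/+ replicates 1, 2 and 3 first and PHD1-/- replicates 1, 2 and 3 after them.

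All 9 genes lie on autosomes in GRCm38 and are protein-coding. C1qa (chr4:136895917-136898803), C1qc (chr4:136889804-136893065) and C1qb (chr4:136880129-136886187) share the minus strand of chromosome 4 within 18675 bases. C3 (chr17:57203970-57228136) and C4b (chr17:34728380-34743882) lie on the minus strand of chromosome 17, C3ar1 (chr6:122847138-122856161) on that of chromosome 6, and Serping1 (chr2:84765387-84775444) on that of chromosome 2. C5ar1 (chr7:16246743-16259540, minus strand) and Itgam (chr7:128062640-128118491, plus strand) lie far apart on chromosome 7. Itgam overlaps Gm49368 on the same strand and C3 contains the microRNA gene Mir6978, so reads there cannot be told apart by position alone. C4b has a near-identical neighbour, C4a, and how the counting split their reads is uncertain: C4b was given 8686 UMIs in all and C4a 118.

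RefSeq promoter windows of GRCm38.p6, 250 bases before to 50 after the start of the RefSeq entry, were matched by symbol for 6 of the 9 genes. That start can differ from the gene ends given above. Part of the C1qc stretch shown lies inside the gene as placed above, which runs to 136893065. Entries for C1qa, C4b and Serping1 were not used here. The windows were searched on both strands for GAGGAA (PU-box, the core bound by the myeloid factor PU.1) and TTCNNNGAA (GAS, a STAT element), and for a core of the interferon-stimulated response element (ISRE-like). The 250 bases before the start are shown for the myeloid genes with a match and, beside them, for C3, whose highest mean among classes with at least 10 nuclei in every library was in astrocytes; capitals mark GAGGAA or its reverse complement.
C1qb, chr4:136886201-136886450, minus strand: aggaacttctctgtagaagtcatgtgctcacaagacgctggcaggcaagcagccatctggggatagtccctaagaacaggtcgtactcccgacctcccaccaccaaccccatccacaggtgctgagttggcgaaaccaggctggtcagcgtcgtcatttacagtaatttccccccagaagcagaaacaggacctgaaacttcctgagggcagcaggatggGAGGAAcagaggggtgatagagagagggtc
C1qc, chr4:136892915-136893164, minus strand: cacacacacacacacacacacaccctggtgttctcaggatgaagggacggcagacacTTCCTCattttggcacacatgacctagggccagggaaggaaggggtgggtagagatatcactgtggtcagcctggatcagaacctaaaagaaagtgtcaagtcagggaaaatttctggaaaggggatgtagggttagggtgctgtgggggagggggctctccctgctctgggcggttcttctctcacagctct
Itgam, chr7:128062390-128062639, plus strand: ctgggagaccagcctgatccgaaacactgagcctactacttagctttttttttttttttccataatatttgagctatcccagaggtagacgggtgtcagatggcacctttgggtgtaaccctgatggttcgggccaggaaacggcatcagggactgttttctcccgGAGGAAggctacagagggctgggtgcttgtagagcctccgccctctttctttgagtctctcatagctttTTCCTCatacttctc
C3, chr17:57228137-57228386, minus strand: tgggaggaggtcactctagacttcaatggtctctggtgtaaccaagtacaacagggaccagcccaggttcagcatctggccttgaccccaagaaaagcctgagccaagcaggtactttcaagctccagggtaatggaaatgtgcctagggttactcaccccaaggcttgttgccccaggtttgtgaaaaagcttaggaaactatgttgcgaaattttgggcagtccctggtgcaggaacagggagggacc
Counted from the start of the RefSeq entry, C1qb held GAGGAA at -30 and C1qc at -193. Itgam held it at -84 and -15 and once more at position 33 after the start. No window of C3, C3ar1 or C5ar1 held it, and none of the 6 windows held either other motif. GAGGAA occurred in 28.3% of all 32851 windows of the same length, TTCNNNGAA in 8.3% and the ISRE-like core in 3.44%. A match describes the letters of the window and no binding was measured.

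The 3 chains of C1q were microglial transcripts. C1qa stood at 1242, 2159, 2316, 1562, 2201 and 1801 CPM in microglia (1880 ± 421, SD, n = 6), which held 67.6% of all its UMIs. C1qb stood at 696.5, 2091, 1894, 785.8, 1777 and 1485 CPM (1455 ± 587). C1qc stood at 676.8, 1546, 1217, 920.6, 1181 and 1031 CPM (1096 ± 295). For each chain the 2 libraries of replicate 1 were the lowest, in both genotypes, and the genotypes overlapped. Border macrophages, the resident macrophages of meninges and vessels, reached 1435 ± 1328 CPM of C1qa, 1652 ± 1829 CPM of C1qb and 843 ± 820 CPM of C1qc. These means rest on 90 nuclei, and the 12 nuclei of PHD1+/+ replicate 3 alone gave 4067 CPM of C1qa, so the order of microglia and border macrophages was within the spread for all 3 chains.

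**Figure D1:**
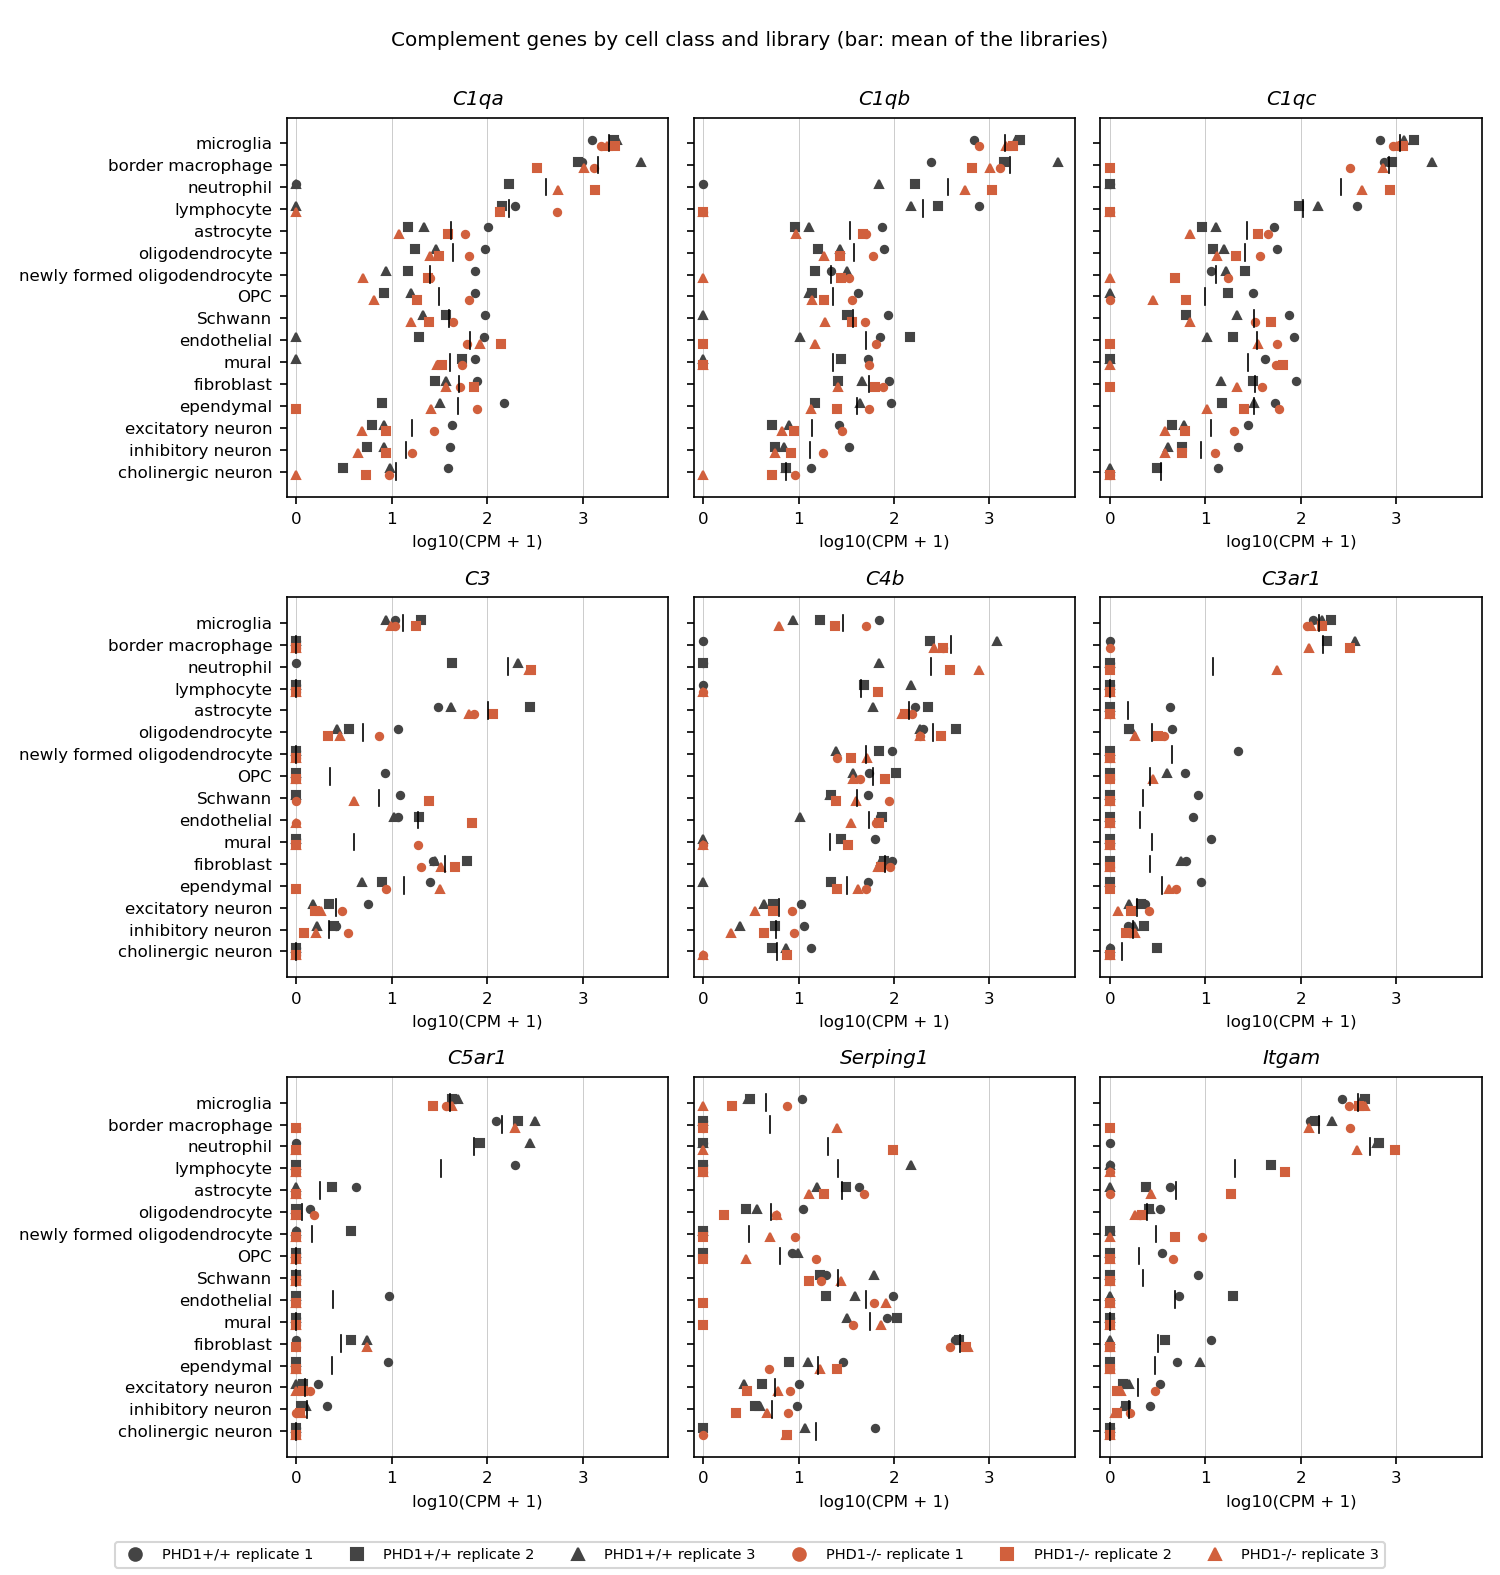
Each panel plots 1 complement gene as log10(CPM + 1) in the 16 named cell classes, with a point per library (grey PHD1+/+, orange PHD1-/-; circle, square and triangle for replicates 1, 2 and 3) and a bar at the mean of the libraries. The C1q chains, C3ar1, C5ar1 and Itgam are high in the myeloid rows, Serping1 stands at 491 CPM in fibroblasts, and C4b at 254 CPM in oligodendrocytes.

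UMIs of C1q were also found at low levels outside myeloid nuclei. Whether they came from free RNA in the droplets, doublets or the nuclei themselves was not tested. The 3 chains made up 41.5%, 33.9% and 24.6% of C1q UMIs (C1qa, C1qb, C1qc) in microglia and 40.8%, 34.9% and 24.3% in oligodendrocytes. All 3 chains were seen together in 47.8% of 2908 microglia but in 6 of 13440 oligodendrocytes (0.0446%), whereas any chain was seen in 13.2% of oligodendrocytes. In neurons C1qa was 3.295% and 1.421% of the microglial level of the same library in the replicate 1 libraries and 0.205% to 0.3508% in the others. In oligodendrocytes C1qa stood at 94.91, 16.42, 28.37, 63.85, 30.1 and 24.1 CPM. Because their source was not tested, levels of C1q in non-myeloid classes are not read as expression of C1q in those classes.

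Likeness over the classes, measured by Pearson's r of log2(mean CPM + 1) over the 16 named classes among 15360 genes with at least 300 UMIs, placed the other chains among the 3 nearest genes of each chain. C1qa was nearest to C1qb (r = 0.993), C1qc (0.987) and Ctss (0.985), the last a lysosomal cathepsin of myeloid cells. C1qb followed C1qa, C1qc and Ctss (0.976), and C1qc followed Ctss (0.988), C1qb and C1qa. These class means come from the same libraries, so the coefficients describe likeness only.

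C3, the component on which all routes converge, was an astrocyte transcript among the named classes of at least 10 nuclei per library. It stood at 29.27, 280.4, 41.23, 71.17, 113.3 and 64.22 CPM in astrocytes (99.9 ± 93.0, SD, n = 6; 370 UMIs, 32.5% of the gene's UMIs). PHD1+/+ replicate 2 was the highest library and PHD1-/- replicate 2 the next. Fibroblasts held 34.9 ± 15.3 CPM and microglia 12.03 ± 4.75 CPM, and astrocytes were above fibroblasts in 6 of 6 libraries although the ranges overlapped. Neutrophils, a class of 54 nuclei with none in PHD1-/- replicate 1, gave 163 ± 134 CPM from 12 UMIs.

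Within astrocytes C3 was concentrated in the clusters rich in Gfap, an intermediate filament gene used as a marker of reactive astrocytes. Without a sample free of the transgene, Gfap-high nuclei cannot be called reactive from these data. The clusters were divided at 1000 CPM of Gfap, a value chosen after the data were seen, and the comparison is a description with no test. C3 stood at 46.11, 753, 340.9, 139.2, 496.8 and 311.9 CPM in the Gfap-high clusters (348 ± 254). It stood at 12.85, 29.32, 3.317, 0, 3.736 and 5.231 CPM in the Gfap-low clusters (9.08 ± 10.8). Every library was higher in the Gfap-high clusters, and the 2 ranges did not overlap; 347 of the 370 UMIs of C3 in astrocytes came from them. The Gfap-high set was small in some libraries, with 20 nuclei in PHD1+/+ replicate 3 and 24 in PHD1-/- replicate 2, where it gave 13 and 38 UMIs of C3. Within this set C3 did not track Gfap in every library. PHD1+/+ replicate 1 had the highest Gfap (1950 CPM) and the lowest C3, while PHD1-/- replicate 2 was high in both (1922 CPM of Gfap). Of the 111 Gfap-high nuclei of PHD1+/+ replicate 1, 59 came from a sub-cluster led by Ntsr2 and Slc7a10.

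C4b, whose product is cleaved by C1 and forms the next convertase, was spread over the macroglia. Oligodendrocytes held 72.2% of its UMIs, at 198.8, 451.3, 188.7, 186.2, 308.7 and 187.7 CPM (254 ± 108, SD, n = 6). Astrocytes stood at 165.9, 227, 58.9, 152.9, 130.8 and 121.7 CPM (143 ± 55.4). Both replicate 2 libraries were above the others in oligodendrocytes, while the other 4 lay between 186.2 and 198.8 CPM. In oligodendrocyte precursors (OPC), at 53.14, 104.9, 35.91, 42.63, 80.31 and 36.4 CPM, the same 2 libraries were again the highest. Fibroblasts held 78.6 ± 10.4 CPM, and border macrophages 395 ± 419 CPM from 46 UMIs.

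C4b was also counted nucleus by nucleus. With each nucleus reduced to 1000 UMIs and shallower nuclei left out, 19.1% ± 6.21 of oligodendrocytes (SD, n = 6) held a UMI of C4b, against 0.516% ± 0.390 of inhibitory neurons, a class taken as background. The same share was 12.7% ± 5.18 in astrocytes. In oligodendrocytes the shares by library were 16.77%, 29.83%, 14.23%, 16.13%, 23.33% and 14.46%, highest in both replicate 2 libraries.

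Gfap-high astrocytes also carried more C4b than Gfap-low astrocytes, at 256.9, 358.8, 262.2, 221.7, 405.3 and 289.9 CPM (299 ± 69.4) against 77.08, 157.1, 33.17, 80.9, 52.31 and 81.61 CPM (80.4 ± 42.2). The 6 libraries all showed the same order and the ranges did not overlap. Replicate 2 of both genotypes gave the 2 highest values of C3 and of C4b in the Gfap-high clusters. Microglia of the same 2 libraries had the highest summed level of 9 disease-associated microglia markers, 15850 and 13060 CPM against 5661 to 8655 CPM in the others. C3 over the classes was most like Mgst1 (r = 0.864), Hdhd2 (0.860) and Vezf1 (0.859), and C4b most like St3gal4 (0.897), Jmjd6 (0.894) and Dstyk (0.858).

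**Figure D2:**
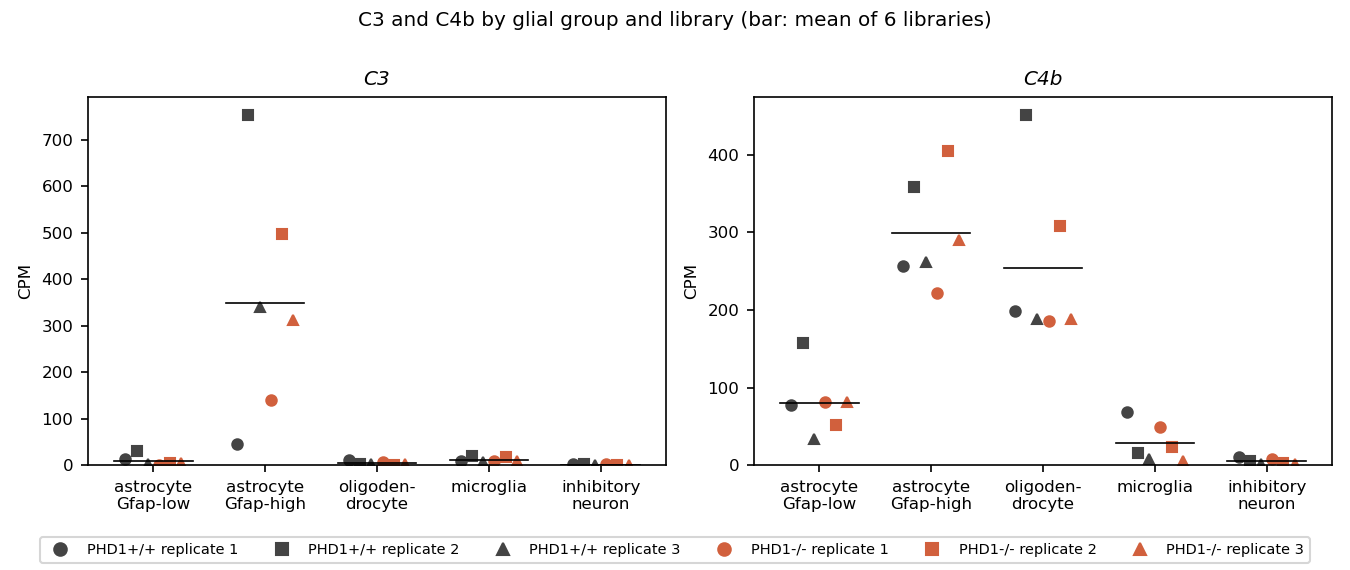
CPM of C3 and of C4b in Gfap-low and Gfap-high astrocytes, oligodendrocytes, microglia and inhibitory neurons, with a point per library (colours and shapes by genotype and replicate) and a bar at the mean of 6 libraries. C3 is high in Gfap-high astrocytes alone among these groups (348 CPM), and C4b is at 299 CPM there and at 254 CPM in oligodendrocytes.

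Serping1 was a fibroblast transcript. It stood at 436.2, 476.4, 494.7, 388.5, 561.8 and 590 CPM in fibroblasts (491 ± 75.6, SD, n = 6), which held 39.4% of its UMIs. The ranges of the next classes, mural cells at 54.9 ± 39.2 CPM and endothelium at 49.4 ± 37.6 CPM, did not reach it. Astrocytes held 27.3 ± 15.1 CPM, and within them the Gfap-high clusters held 63.4 ± 24.3 CPM and the Gfap-low clusters 15.6 ± 16.1 CPM. Microglia held 11 UMIs of Serping1 in all, beside 7575 of C1qa, 6174 of C1qb and 4486 of C1qc. Its nearest genes over the classes were Aox3 (r = 0.837), Dcn (0.836), a collagen-binding proteoglycan of fibroblasts, and Fhl2 (0.824).

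The receptors were myeloid. C3ar1 stood at 133.4, 207.2, 166.7, 115.1, 166.3 and 127.4 CPM in microglia (153 ± 34.0, SD, n = 6), with 69.7% of its UMIs there. Apart from border macrophages (168 ± 159 CPM, 21 UMIs), no class had a range that reached that of microglia. Itgam stood at 272.7, 471.4, 442, 315.6, 403.8 and 465.9 CPM in microglia (395 ± 83.0), with 82.5% of its UMIs there. Neutrophils, in which CD11b is also a known surface protein, held 529 ± 360 CPM of Itgam over the 5 libraries that had any such nucleus (42 UMIs), within the spread of microglia.

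C5ar1 was the scarcest of the 9, with 245 UMIs in all nuclei. It stood at 45.12, 42.28, 48.46, 36.17, 26.05 and 41.88 CPM in microglia (40.0 ± 7.95, 149 UMIs). Border macrophages stood at 141 ± 126 CPM (24 UMIs) and neutrophils at 72.2 ± 120 CPM (6 UMIs), and both overlapped microglia. The 3 PHD1+/+ libraries gave the 3 highest microglial values. C3ar1 over the classes was most like Cd300c2 (r = 0.962), Ms4a6d (0.940) and Asah1 (0.930), C5ar1 most like Arhgap30 (0.978), Myo1f (0.977) and Ptpn6 (0.976), and Itgam most like Csf2rb (0.974), BC035044 (0.969) and Irf8 (0.968).

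The receptor genes C3ar1 and Itgam differed in opposite directions between homeostatic and disease-associated microglia. Sub-clusters of microglia were ordered by marker lists of homeostatic and of disease-associated microglia, the latter a state known from neurodegeneration with high Apoe and Lpl. Cut-offs on the difference of the list scores were chosen after the data were seen and gave 1522 homeostatic, 510 disease-associated and 876 intermediate nuclei. A further immune sub-cluster of 120 nuclei kept no class name and is in none of these sets. It was led by Gpnmb, a gene of the disease-associated list, and its best marker list was that of microglia. Lpl, of the disease-associated list, stood at 70.6 ± 38.7 and 739 ± 182 CPM in homeostatic and disease-associated nuclei. P2ry12, of the homeostatic list, stood at 1032 ± 181 and 362 ± 62.9 CPM. Both lists set the states, so these levels describe the division and are no support for it. Disease-associated nuclei numbered 66, 177, 60, 41, 126 and 40 by library. Replicate 1 drew on other sub-clusters than the rest. A sub-cluster of 109 disease-associated nuclei held 65 of PHD1+/+ and 31 of PHD1-/- replicate 1, and 1 to 5 of each other library. A homeostatic one of 580 nuclei held 362 and 181 of replicate 1, and 5 to 17 of each other library. All that follows on states is a description of clustered nuclei with no test.

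C3ar1 was higher in the disease-associated sub-clusters. It stood at 148.6, 152.9, 152.2, 126.2, 132.4 and 96.77 CPM in homeostatic nuclei (135 ± 21.7). It stood at 206.6, 261.7, 203.6, 318.8, 204.8 and 285.7 CPM in disease-associated nuclei (247 ± 49.3), higher in 6 of 6 libraries with no overlap of the ranges. Itgam went the other way. It stood at 375.4, 642.2, 546.4, 467.6, 561.9 and 568.9 CPM in homeostatic nuclei (527 ± 92.9). It stood at 227.3, 340.5, 315.6, 191.3, 370.4 and 207.8 CPM in disease-associated nuclei (276 ± 75.9), lower in 6 of 6 libraries, again with no overlap. The disease-associated values of C3ar1 rest on 10, 73, 20, 10, 47 and 22 UMIs by library. Those of Itgam rest on 11, 95, 31, 6, 85 and 16 UMIs. The intermediate nuclei, those between the cut-offs, were a mixed set and did not lie midway for either gene. They included sub-clusters led by Trim30a and Cxcl10 (62 nuclei) and by Top2a (61 nuclei). Another, of 208 nuclei, had oligodendrocytes as its second-best marker list (score 3.05, against 4.1 for microglia). It held 106 nuclei of PHD1+/+ replicate 1 and 73 of PHD1-/- replicate 1, and its part in the values below was not tested. C3ar1 stood there at 97.27, 221.2, 171.2, 57.95, 172.6 and 116.1 CPM (139 ± 59.6), a mean near the homeostatic one with a range that overlapped both sets. Itgam stood there at 155.6, 390.3, 303.5, 195.6, 296.2 and 367.7 CPM (285 ± 92.9), a mean near the disease-associated one.

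The other integrin chains of the complement receptors differed from Itgam. Itgax, the alpha chain of complement receptor 4, stood at 15.4 ± 8.20 CPM in homeostatic and 113 ± 53.9 CPM in disease-associated nuclei, higher in 6 of 6 libraries. Itgb2, the beta chain that pairs with both, stood at 113 ± 41.8 and 176.6 ± 35.03 CPM, also higher in 6 of 6. C1qa stood at 2124 ± 380 and 1782 ± 284 CPM and was lower in the disease-associated nuclei of every library, while its ranges overlapped. C1qb (1661 ± 617 and 1250 ± 385 CPM) and C1qc (1236 ± 347 and 1037 ± 234 CPM) were each higher there in 1 of 6 libraries, and C5ar1 (37.0 ± 11.2 and 45.6 ± 15.1 CPM) in 4 of 6. Colec12, a scavenger receptor of the collectin family, stood at 23.4 ± 18.6 and 125 ± 73.1 CPM, higher in 6 of 6.

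**Figure D3:**
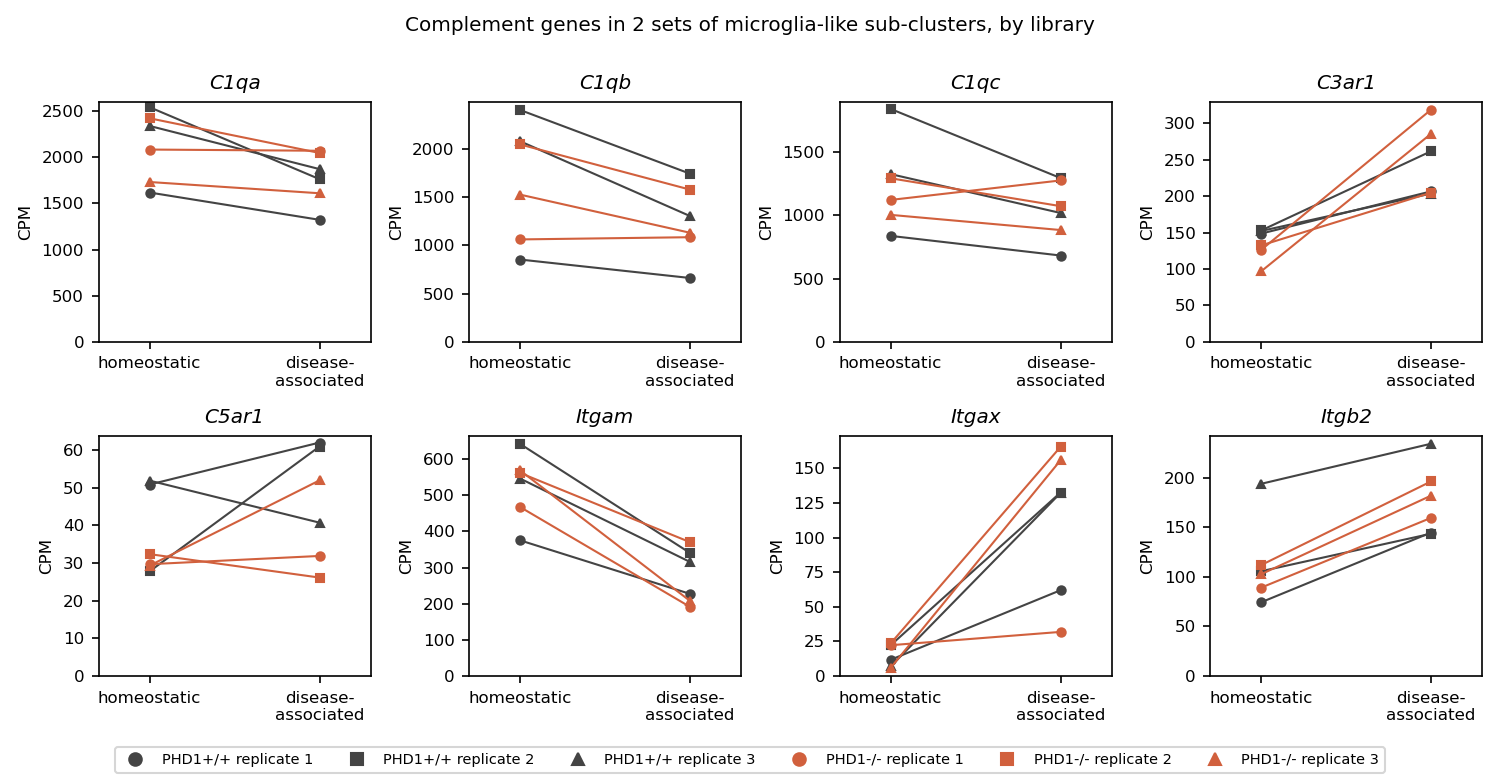
CPM of 8 complement genes in homeostatic and disease-associated microglia sub-clusters, with a line joining the 2 values of each library (colours by genotype, shapes by replicate). All 6 lines rise for C3ar1, Itgax and Itgb2 and all 6 fall for Itgam and C1qa.

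Of the other 49 genes of the complement list, 24 had a mean of at least 20 CPM in a class with at least 10 nuclei in every library. They were 2 of 6 genes of the classical route, 2 of 9 of the lectin route, 0 of 3 of the alternative route, 1 of 7 of the terminal components, 12 of 15 regulators and 7 of 9 receptors. C2, the protease that joins C4 in the classical convertase, stood at 82.0 ± 26.1 CPM in fibroblasts, and C1s1, a protease of C1, at 24.1 ± 16.2 CPM there. Fibroblasts thus held the highest levels of C2 and Serping1 among the classes of that size. For C1s1 they did not differ beyond the spread from mural cells, at 24.0 ± 27.0 CPM from 9 UMIs. Of the lectin route, Masp1 stood at 80.1 ± 12.9 CPM in oligodendrocytes and Colec12 at 806 ± 367 CPM in mural cells. Hc, which encodes C5, the source of the C5ar1 ligand, reached 27.5 ± 21.4 CPM in ependymal cells from 44 UMIs.

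Regulators differed in how many of the 16 named classes they reached. A mean of at least 20 CPM was met by Clu in 16 classes, Cd59a in 8, Vtn in 7 and Cd55 in 6. Cd55 and Cd59a, membrane inhibitors of the convertases and of the attack complex, were highest in Schwann cells at 168 ± 61.5 and 139 ± 42.7 CPM. Vtn stood at 4495 ± 1568 CPM in mural cells and Clu at 961 ± 359 CPM in ependymal cells, both fluid-phase inhibitors of the attack complex. Cr2, a receptor for C3 fragments, was low, at 20.4 ± 5.89 CPM in astrocytes (71 UMIs), and Cd93 stood at 100 ± 29.9 CPM in endothelium.

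None of the 9 genes was called between PHD1-/- and PHD1+/+. The test was edgeR's quasi-likelihood test on UMIs summed per library, 3 libraries against 3, with Benjamini-Hochberg adjustment over all genes tested and a threshold of 0.05. In all nuclei 0 of 9 members were called, beside 0% of 19303 genes tested, and DESeq2 called 0 genes as well. At an unadjusted p under 0.05 edgeR gave 96 genes, 0.497% of those tested, with C5ar1 the 1 member among them. All 9 fitted differences lay below 0, with a median log2 difference of -0.33 against -0.01 over all genes tested. The genes are not independent of each other. C1qa, C1qb, C1qc, C3ar1, C5ar1 and Itgam were alike over the classes (r of 0.729 to 0.993 between any of them), so their common sign is not so many separate observations. A sum over all nuclei cannot tell fewer cells of a type from less RNA per cell. Apart from naming littermate pairs the labels do not say that each library is 1 animal, so the p-values measure the spread between these libraries, which may be partly technical.

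C5ar1 in all nuclei had the smallest p of the 9. Its level was 2.25 ± 0.726 CPM in PHD1+/+ and 1.25 ± 0.294 CPM in PHD1-/- (SD, n = 3 each). The log2 difference was -0.86 (SE 0.35, edgeR adjusted p = 1), past an unadjusted p of 0.05 and not past the adjusted threshold. In microglia the log2 difference of C5ar1 was -0.42 (SE 0.30, 95% interval -1.11 to 0.28, edgeR adjusted p = 1). The share of microglia with a UMI of C5ar1, at 1000 UMIs per nucleus, was 3.873%, 3.412% and 4.126% in PHD1+/+ and 0.6171%, 2.591% and 3.211% in PHD1-/-, with 0 in oligodendrocytes of every library. The groups did not overlap (p = 0.1 by a two-sided exact permutation test, the lowest p that 3 libraries a side can reach; adjusted p = 0.9 over the 9 genes). Without thinning the shares were 4.071%, 5.539% and 7.038% against 2.915%, 3.803% and 5.833%, and overlapped (exact permutation p = 0.4), and thinned to 500 UMIs the difference was -0.515 points (exact permutation p = 0.4). In each of the 3 same-numbered pairs the PHD1-/- share was the lower one, at 1000 UMIs and without thinning. At 1000 UMIs the exact paired sign-flip test gave p = 0.25, the lowest that 3 pairs can reach. Thinning left 68 microglia in PHD1-/- replicate 1, the library with the lowest thinned share.

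In microglia 0 of 7 members tested were called, beside 0% of 8612 genes tested, with 0 by DESeq2 and 41 genes at an unadjusted p under 0.05, none of them a member. C1qa did not separate the genotypes, at 1906 ± 580 CPM in PHD1+/+ and 1855 ± 323 CPM in PHD1-/-, with a log2 difference of -0.04 (95% interval -0.79 to 0.71). The interval for C1qb was -1.26 to 0.84 and that for C1qc -0.90 to 0.63. C3ar1 stood at 169 ± 36.9 and 136 ± 26.8 CPM, a log2 difference of -0.31 (-0.92 to 0.29), and was lower in PHD1-/- in each of the 3 same-numbered pairs. Itgam stood at 395 ± 107 and 395 ± 75.5 CPM, a log2 difference within -0.64 to 0.63. These intervals come from the fit of 3 libraries a group without the replicate block, and differences inside them are not excluded. C3 and Serping1 had too few UMIs in microglia to be fitted.

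Shares of microglia with a UMI overlapped between genotypes for C1qa and Itgam. At 1000 UMIs per nucleus C1qa was found in 51.4%, 80.9% and 82.27% of PHD1+/+ and 52.04%, 79.97% and 75.54% of PHD1-/- microglia (exact permutation p = 0.6), beside 3.75% ± 1.91 of oligodendrocytes. Itgam was found in 13.26%, 34.63% and 35.39% against 13.41%, 31.64% and 33.53% (exact permutation p = 0.6), beside 0.163% ± 0.119 of oligodendrocytes. Replicate 1 was low in both genotypes for both genes. Thinning kept 129 of its PHD1+/+ microglia and left out 436, and kept 68 of its PHD1-/- microglia and left out 275. The sub-cluster with oligodendrocytes as second-best list had a median of 1527 UMIs, so its nuclei may weigh more among those kept. The microglial share with a UMI of C4b was 9.476% and 6.885% in replicate 1, against 0.451% to 1.577% in the other libraries. How far mixed nuclei set the replicate 1 shares was not tested. Median depth was 695 to 1506 UMIs in microglia and 878 to 1933.5 UMIs in oligodendrocytes.

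In astrocytes 0 of 6 members tested were called, beside 0% of 6890 genes tested, with 0 by DESeq2 and 40 genes at an unadjusted p under 0.05, none a member. C3 stood at 117 ± 142 CPM in PHD1+/+ and 82.9 ± 26.6 CPM in PHD1-/-, a log2 difference of -0.57 (SE 0.70, 95% interval -2.17 to 1.02). The direction rested on 1 library: without PHD1+/+ replicate 2 the log2 difference was 1.14. C4b stood at 151 ± 85.1 and 135 ± 16.1 CPM, a log2 difference of -0.20 (-1.19 to 0.78), which was 0.19 without the same library. C3 in all nuclei, at a log2 difference of -1.24 (SE 0.83), was -0.25 without PHD1+/+ replicate 1. That library held 287 of the 327 UMIs of C3 found in nuclei led by Gfap that stayed without a class name.

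In oligodendrocytes 0 of 5 members tested were called, beside 0% of 12620 genes tested, with 0 by DESeq2 and 96 genes at an unadjusted p under 0.05, none a member. C4b stood at 280 ± 149 CPM in PHD1+/+ and 228 ± 70.3 CPM in PHD1-/-, a log2 difference of -0.29 (SE 0.38, 95% interval -1.18 to 0.60). It was 0.24 without PHD1+/+ replicate 2. In OPC 0 of 1 member tested was called beside 0% of 7668 genes (DESeq2 0, unadjusted 85), and C4b had a log2 difference of -0.32 (SE 0.43). In endothelium 0 of 1 was called beside 0% of 2965 genes (DESeq2 0, unadjusted 24).

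In excitatory neurons 0 of 7 members tested were called beside 0% of 15914 genes (DESeq2 0, unadjusted 74), and in inhibitory neurons 0 of 6 beside 0% of 15448 genes (DESeq2 0, unadjusted 58). No member was among the genes at an unadjusted p under 0.05 in these classes. With the replicate number as a block 28 genes were called in excitatory and 49 in inhibitory neurons, 0 of them members. The C1q values tested there are the low neuronal levels described above. Serping1 was not tested in its main class, since fibroblasts were not fitted, and stood at 436.2, 476.4 and 494.7 CPM in PHD1+/+ and 388.5, 561.8 and 590 CPM in PHD1-/- fibroblasts, which overlapped.

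Of the 58 genes of the complement list, 42 could be tested in all nuclei, 11 above and 31 below 0, and 0 were called. Their median log2 difference was -0.21, against -0.009 over all genes tested. In microglia 21 could be tested, 7 above and 14 below 0, with a median of -0.13 against -0.01 over all genes tested, and 0 were called. In astrocytes 5 of 16 lay above and 11 below 0, in oligodendrocytes 7 of 24 above and 17 below, and 0 were called in either. The medians there were -0.229 and -0.167, against -0.019 and -0.015 over all genes tested. Both counts include the C1q chains, and the source of their UMIs in these classes was not tested.

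**Figure D4:**
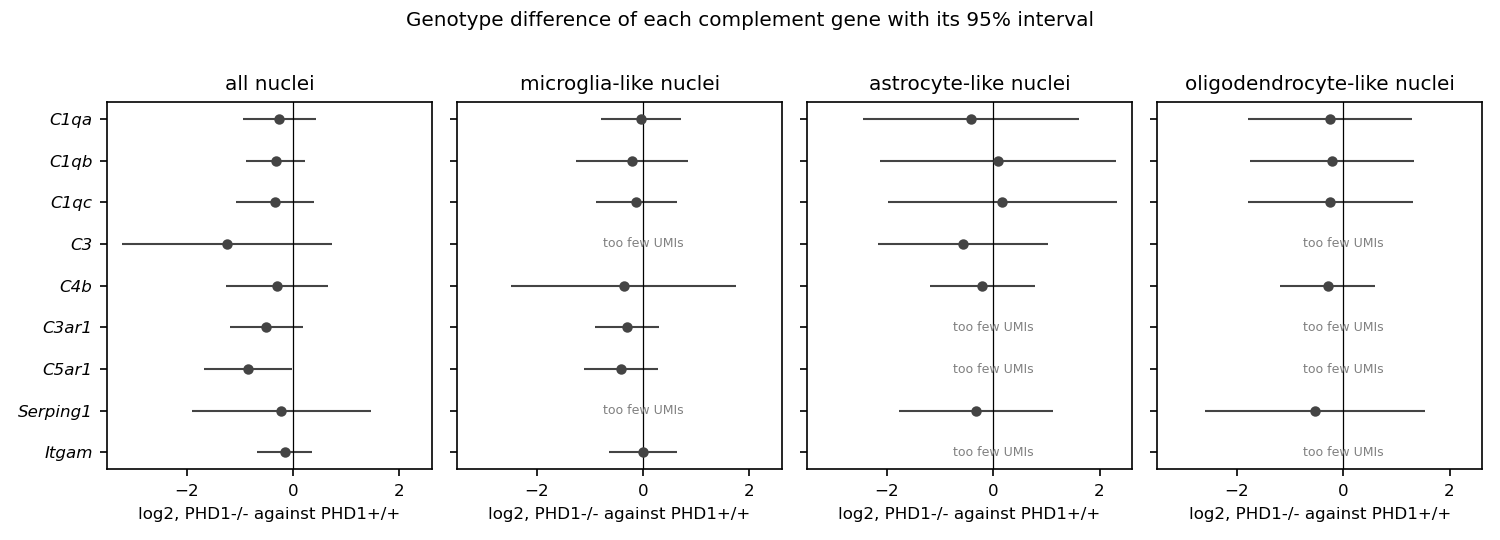
Fitted log2 difference of each complement gene, PHD1-/- against PHD1+/+, with its 95% interval in all nuclei, microglia, astrocytes and oligodendrocytes (edgeR, 3 libraries a group). Every interval crosses 0 except that of C5ar1 in all nuclei, whose upper end is -0.03 and whose adjusted p is 1.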

How the data were processed

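Single-nucleus 3' libraries were counted by the authors. The deposited values are raw UMI counts per gene and barcode, per the file headers. Among tools, Cell Ranger 5.0.2 and Scanpy 1.8.1 stand in the submitters' processing notes, with mm10 as the build. No source used here says whether intronic reads were included. Replicate groups follow the sample titles. The 9 genes and all lists were chosen with earlier results of these data known.

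Barcodes with at least 500 UMIs were kept and Scrublet doublets removed; Scrublet marked 0 and 1 nuclei in the replicate 1 libraries, so doublets remain there. Nuclei were clustered with Scanpy 1.11.5 and leidenalg 0.10.2 without the complement list, and named from marker lists, mature and newly formed oligodendrocytes being treated as one lineage. Levels are CPM of class sums. Summed counts (classes with at least 10 nuclei in every library) were tested with edgeR 4.0.16 (TMM, filterByExpr) in R 4.3.3, with DESeq2 1.42.0 as an alternative. The edgeR step was tested on simulated data. Shares were computed as the expected share when each nucleus is thinned to 1000 UMIs. Counting error and differences between libraries limit precision; total UMIs per library ran from 14120298 to 33794389.

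The named genes are the 9 members, complement genes past the threshold or with a class mean of at least 20 CPM, and for each member the 3 genes of most similar class pattern. Of the second group, examples are named in the text, and 1 gene is not reported here. Same-numbered libraries deviated together over 19303 genes (correlations of 0.83, 0.64 and 0.52, each above 0.1). Differently numbered libraries gave -0.72 to 0.48, the highest being PHD1+/+ replicate 3 with PHD1-/- replicate 2 (0.48) and PHD1+/+ replicate 2 with PHD1-/- replicate 3 (0.39). The numbers were taken as pairs under that threshold, a pairing that comes from these data and the labels' mention of littermate pairs. The main edgeR p-values, SEs and intervals did not use these pairs, so differences shared by same-numbered libraries stay in their spread. The replicate block was fitted as an alternative only. Alternatives tried were DESeq2, no TMM factors, no filter on low counts, the replicate block, leaving out each library, replicates 2 and 3 only, nuclei with at least 1000 UMIs, clusters built with the complement genes, doublets kept, and other thinning.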

Additional observations from a re-analysis of the deposited data

Results flagged for a closer look

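Nuclei of clusters led by Gfap that kept no class name held 327 UMIs of C3 and 173 UMIs of Serping1, outside the named classes that the comparisons used. Of these nuclei 468 came from PHD1+/+ replicate 1 and 63 from PHD1-/- replicate 1, with 1 to 11 in each other library. Pooled over libraries they stood at 217.5 CPM of C3 and 115 CPM of Serping1. Pooled in the same way, Gfap-high named astrocytes stood at 368.5 and 56.28 CPM and Gfap-low ones at 9.814 and 10.67 CPM. The nuclei without a class name also held 162.9 CPM of C1qa. Their median mitochondrial share was 1.904%, against 0.2595% in Gfap-high and 0.166% in Gfap-low astrocytes.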

How the results depend on the processing

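No member was called under any alternative (225 refitted member differences, smallest adjusted p 0.698); 206 kept their direction and 19 reversed. Of 102 alternative counts of called genes 95 were as in the report, and all 26 class levels stayed within their spread. Differences in shares were the least stable, with 30 of 108 reversed. Without the filter on low counts 3 genes were called in astrocytes and 3 in OPC. With replicates 2 and 3 only 1 was called in astrocytes and 1 in excitatory neurons. With the replicate block, which pairs same-numbered libraries, 1 gene was called in OPC, 28 in excitatory and 49 in inhibitory neurons; it changed no other call, and C5ar1 in all nuclei was at -0.82. Reversed log2 differences were Serping1 in all nuclei at 0.13 with replicates 2 and 3 only, and Itgam in microglia at 1.01e-05 with complement genes kept in the clustering and 0.0266 at 1000 UMIs or more. The microglial share of Serping1 reversed to -0.18 points thinned to 500 UMIs and -0.245 not thinned. The causes were not tested. Endothelium was not fitted at 1000 UMIs or more, where a library held under 10 such nuclei.

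Leaving out 1 library at a time gave log2 differences in microglia from -0.245 to 0.0929 for C1qa, -0.543 to 0.0509 for C1qb, -0.38 to 0.13 for C1qc, -0.18 to 0.13 for Itgam, -0.48 to -0.15 for C3ar1 and -0.58 to -0.205 for C5ar1. In astrocytes they ran from -1.03 to 1.14 for C3 and -0.59 to 0.19 for C4b, in oligodendrocytes from -0.56 to 0.24 for C4b. In all nuclei they ran from -0.625 to 0.0305 for C4b, -0.262 to 0.0248 for Itgam, -0.70 to 0.59 for Serping1 and -0.997 to -0.57 for C5ar1. The remaining members kept their sign there, with -0.386 to -0.0234 for C1qa, -0.505 to -0.144 for C1qb and -0.555 to -0.131 for C1qc. C3 ran from -1.74 to -0.249 and C3ar1 from -0.688 to -0.322. Shares in astrocytes ran, in points, from -4.78 to 2.08 for C3, -4.72 to 2.66 for C4b and -1.52 to 0.575 for Serping1. Shares in microglia ran from -12.4 to 6.23 for C1qa, -19.2 to 7.02 for C1qb, -13.4 to 3.7 for C1qc, -0.508 to 0.319 for C3, -4.72 to 0.287 for C3ar1, -2.6 to 2.21 for C4b, -8.82 to 4.82 for Itgam and -0.354 to 0.52 for Serping1. The share of C5ar1 kept its sign, from -2.2 to -0.903. With 3 libraries a group and 245 UMIs of C5ar1 in all, depth limits what could be seen for that gene.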
